A study of Homo sapiens with 6 samples.

Results

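AP-1 is a family of transcription factors that bind DNA as pairs, joined through a leucine zipper. FOS proteins (the genes Fos, Fosb, Fosl1 and Fosl2) pair only with partners such as JUN proteins, whereas JUN proteins (Jun, Junb and Jund) can also pair among themselves. Fos, Fosb, Jun, Junb, the zinc finger factor gene Egr1 and the small immediate early genes Ier2 and Ier3 belong to the genes that growth factors, depolarisation, stress or fresh serum switch on within minutes, without new protein synthesis, through SRF, the ternary complex factors, CREB and MAP kinases. In cells of neuronal type their transcripts are widely used as a readout of recent stimulation, and most are short-lived. The genes described here were taken by name. All 10 were found among 53492 genes, each under a single identifier, and their levels were compared between the 2 transfections of the study.

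The study measured polyadenylated RNA by sequencing in 6 libraries, 3 labelled GFP-CCNB1IP1 (vector pCS2-eGFP-CCNB1IP1) and 3 labelled GFP (vector pCS2-eGFP-N). The labels name SH-SY5Y, a human neuroblastoma line with noradrenergic features, as the transfected cells, and give no time after transfection and no stimulus. GFP is the green fluorescent protein, and CCNB1IP1, or HEI10, is an E3 ubiquitin ligase best studied in meiosis. Levels are in FPKM, fragment counts scaled to transcript length and to library size, so that genes can be set side by side.

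The gene tables do not carry human genes. Of their 53492 identifiers 0 matched a human table of 62700, and the names and the 19 numbered chromosomes are those of mouse. Every level here is therefore one assigned to a mouse gene, although the labels name human cells. Which species the sequenced RNA came from was not tested, and levels set side by side between genes carry that uncertainty. The mouse gene Ccnb1ip1 had 7.36e-08, 0.133 and 0.191 FPKM in the GFP-CCNB1IP1 libraries and 0.0334, 0.125 and 0.0698 FPKM in the GFP libraries. It was below the filter of a mean of 1 FPKM. In the fit of all 26841 genes with a value above 0 its log2 difference was 0.039 (SE 0.073, limma, adjusted p = 0.875), which says little at such levels. The species of the introduced sequence was not checked here, so the labels are neither borne out nor contradicted by these values, and groups are those the libraries are labelled with. Of 12 markers of noradrenergic neuroblastoma, 10 had a mean of at least 1 FPKM, and Dbh and Ddc, both of catecholamine synthesis, did not. The summed level of the 12 was 891 to 975 FPKM in the GFP-CCNB1IP1 libraries and 1048 to 1144 FPKM in the GFP libraries. Much of that gap lay in Chgb, named after its values were seen, with means of 359 FPKM in GFP-CCNB1IP1 and 468 FPKM in GFP. Of the 10 markers that passed the filter, 8 were lower in GFP-CCNB1IP1 and 2 higher, and 3 were lower without overlap, beside 8.9% of all genes tested. Of 8 macrophage and microglia markers, 8 were above 0 in GFP-CCNB1IP1 replicate 2, with a summed level of 6.27 FPKM, while GFP-CCNB1IP1 replicates 1 and 3 had 0.552 and 0.479 FPKM and the GFP libraries 0.652 to 0.842 FPKM. In bulk RNA, fewer cells of a type and less RNA per cell cannot be told apart, and the part of either marker difference in the levels given here was not tested. Relative depth, estimated from the deposited intervals relative to the GFP mean, was 0.988, 0.742 and 1.04 in the GFP-CCNB1IP1 libraries and 0.992, 1.06 and 0.950 in the GFP libraries. Whether the replicates are separate cultures is not stated, and the p-values rest on a spread that may be technical alone.

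Libraries that stand apart for these genes have to be named before the levels. GFP-CCNB1IP1 replicate 1 was the highest of the 3 GFP-CCNB1IP1 libraries for 8 of the 10 genes, Fos and Fosl2 being the exceptions, beside 40.9% of the 13231 genes tested. GFP replicate 2 was the highest of the 3 GFP libraries for 9 of the 10 genes, Fosl1 being the exception, beside 38.1% of the genes tested. The comparison is therefore also given without each of these libraries.

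**Figure D1:**
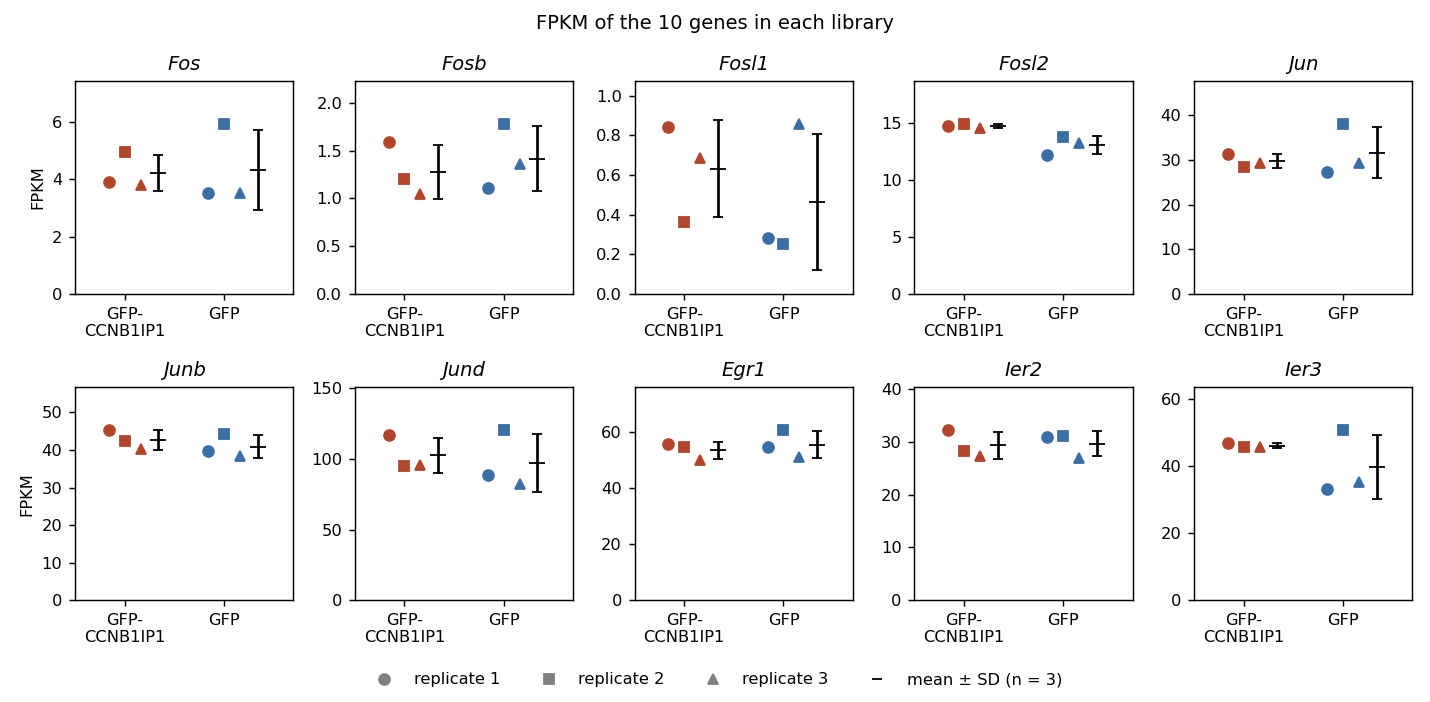
FPKM of each of the 10 genes (vertical axes, linear, from 0, a different scale in each panel) in the 3 GFP-CCNB1IP1 libraries (red) and the 3 GFP libraries (blue), with marker shapes for replicates 1 to 3 and the mean ± SD (n = 3) in black. GFP replicate 2 (blue square) is the highest GFP library in every panel but that of Fosl1, and Fosl2 is the only panel in which the groups do not overlap.

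Among the FOS genes, Fosl2 was the most abundant and the only member whose groups stood apart. Fosl2, whose product FRA-2 has no strong activation domain and is usually the more lasting FOS protein, lies on chromosome 5, from 32293145 to 32315186. It had 14.7, 14.9 and 14.5 FPKM in the GFP-CCNB1IP1 libraries and 12.2, 13.8 and 13.2 FPKM in the GFP libraries. All 3 GFP-CCNB1IP1 values lay above the highest GFP value, but the difference of 0.16 on the log2(FPKM + 1) scale (SE 0.065, 95% confidence interval 0.012 to 0.31) did not pass (limma, adjusted p = 0.409, unadjusted p = 0.0378). Of the genes tested, 9.23% had a smaller p than Fosl2. Its interval included 0 with TPM, with the replicate number as a block (unadjusted p = 0.0575) and in 5 of the 6 fits that leave out a library, the exception being that without GFP replicate 2; without GFP replicate 1 the unadjusted p was 0.127.

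Fos, the classic immediate early gene and the origin of the family's name, lies on chromosome 12, from 85520664 to 85524047. It had 3.90, 4.94 and 3.82 FPKM in the GFP-CCNB1IP1 libraries and 3.54, 5.94 and 3.53 FPKM in the GFP libraries. The highest value and the lowest value of the 6 were both in GFP libraries, so the groups overlapped throughout. The log2 difference was -0.0093 (SE 0.18, interval -0.42 to 0.41; limma, adjusted p = 0.992), and an interval this wide still holds a level from 0.745 to 1.32 times that of GFP on the FPKM + 1 scale. The deposited interval of GFP replicate 2 for Fos, 5.14 to 6.74 FPKM, lay above those of GFP replicate 1 (2.88 to 4.19) and replicate 3 (2.84 to 4.22).

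Fosb, which encodes a close relative of FOS and, through an alternative transcript, the long-lived DeltaFosB known from chronically stimulated neurons, was low. It lies on chromosome 7, from 19036621 to 19043976, and gene-level values do not separate its transcripts. It had 1.59, 1.20 and 1.04 FPKM in the GFP-CCNB1IP1 libraries and 1.11, 1.78 and 1.36 FPKM in the GFP libraries, with overlap, and the log2 difference was -0.081 (SE 0.15; limma, adjusted p = 0.881).

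Fosl1, the gene of FRA-1, which is itself a target of AP-1, was the 1 member that did not pass the filter of a mean of 1 FPKM. It lies on chromosome 19, from 5497575 to 5505974, and had 0.843, 0.366 and 0.686 FPKM in the GFP-CCNB1IP1 libraries and 0.284, 0.250 and 0.859 FPKM in the GFP libraries. The deposited intervals imply only 0.46 to 4.80 fragments per library, and in 4 of the 6 libraries the interval reached 0. When all 26841 genes with a value above 0 were fitted, its log2 difference was 0.17 (SE 0.20; limma, adjusted p = 0.800). Its locus overlaps that of Ccdc85b, at 3.07 to 4.48 FPKM, and with no strand stated fragments of overlapping genes cannot be told apart.

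JUN genes were present at far higher levels than FOS genes. Jund, which encodes the JUN protein that resting cells hold most steadily and that is least dependent on stimulation, lies on chromosome 8, from 71151599 to 71153265. It had 116.9, 95.1 and 95.8 FPKM in the GFP-CCNB1IP1 libraries and 88.4, 120.7 and 82.6 FPKM in the GFP libraries. GFP replicate 2 and GFP-CCNB1IP1 replicate 1 were the 2 high libraries and the groups overlapped, with a log2 difference of 0.090 (SE 0.14, interval -0.24 to 0.42; limma, adjusted p = 0.851). Inside the Jund locus the tables place a second gene model, Gm11175, which had 2.89, 3.74 and 11.6 FPKM in the GFP-CCNB1IP1 libraries and 17.6, 11.9 and 11.8 FPKM in the GFP libraries. How fragments were divided between this pair is uncertain, so the level of Jund carries that uncertainty too.

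Junb, often a weaker activator than JUN and an antagonist of it at some promoters, lies on chromosome 8, from 85703539 to 85705347. It had 45.4, 42.3 and 40.3 FPKM in the GFP-CCNB1IP1 libraries and 44.3 FPKM in GFP replicate 2, with 39.7 and 38.4 FPKM in GFP replicates 1 and 3. The log2 difference was 0.064 (SE 0.070, interval -0.099 to 0.23; limma, adjusted p = 0.772), and the groups overlapped.

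Jun, the main activator of the family and a substrate of the JNK kinases, lies on chromosome 4, from 94937271 to 94940459. It had 31.4, 28.3 and 29.4 FPKM in the GFP-CCNB1IP1 libraries and 27.4, 38.1 and 29.3 FPKM in the GFP libraries. GFP replicate 2 was higher than each of the other 5 libraries, and its deposited interval of 35.9 to 40.2 FPKM lay above the interval of GFP replicate 3, 27.5 to 31.2 FPKM. The log2 difference was -0.073 (SE 0.11, interval -0.34 to 0.19; limma, adjusted p = 0.848). The antisense gene Junos, which overlaps the Jun locus, had at most 1.14 FPKM in any library.

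The summed level of the 3 JUN genes was 193.6, 165.8 and 165.5 FPKM in the GFP-CCNB1IP1 libraries and 155.5, 203.1 and 150.3 FPKM in the GFP libraries. The sum of the 4 FOS genes was 21.1, 21.4 and 20.1 FPKM in the GFP-CCNB1IP1 libraries and 17.1, 21.8 and 19.0 FPKM in the GFP libraries. Transcripts of JUN genes thus exceeded those of FOS genes 8.39 ± 0.744 times in the GFP-CCNB1IP1 libraries and 8.78 ± 0.758 times in the GFP libraries (SD, n = 3 each), a ratio that differed between the groups by less than its spread within them. Jund made up 58.5 ± 1.60% of the JUN sum in the GFP-CCNB1IP1 libraries and 57.1 ± 2.27% in the GFP libraries. Fosl2 made up 70.7 ± 1.49% of the FOS sum in the GFP-CCNB1IP1 libraries and 68.1 ± 4.17% in the GFP libraries. Jund and Fosl2 were the most abundant members of their families in all 6 libraries. The JUN sum, its ratio to the FOS sum and the share of Jund carry the uncertainty of how fragments were divided between Jund and Gm11175.

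**Figure D2:**
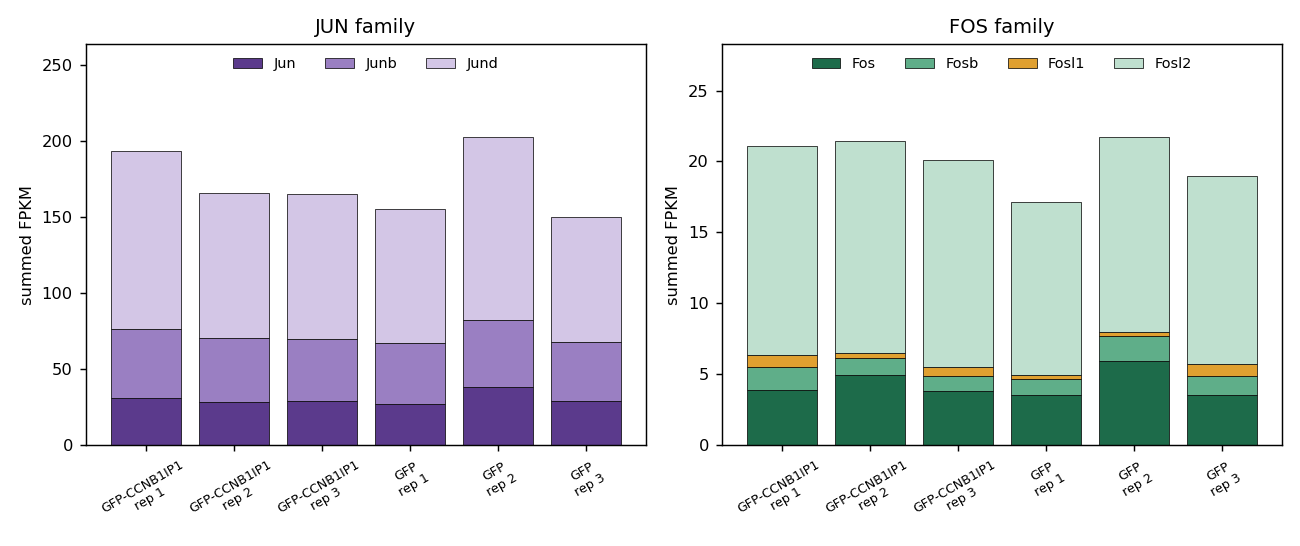
Summed FPKM (vertical axes, linear, from 0; the JUN and FOS panels have different scales) of the JUN genes (left) and the FOS genes (right) in each library, GFP-CCNB1IP1 replicates 1 to 3 and then GFP replicates 1 to 3, with bars divided by gene. Jund and Fosl2 form the largest part of every bar, and GFP replicate 2 has the highest sum in both families, at 203.1 and 21.8 FPKM.

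Egr1 encodes a zinc finger transcription factor that binds GC-rich promoters and is induced through SRF alongside Fos. It lies on chromosome 18, from 34992876 to 34998037. It had 55.8, 54.5 and 50.1 FPKM in the GFP-CCNB1IP1 libraries and 54.8, 60.8 and 51.1 FPKM in the GFP libraries. The values of the groups interleaved, and the log2 difference of -0.052 had one of the narrower intervals among the members, -0.22 to 0.12 (SE 0.074; limma, adjusted p = 0.836). On the FPKM + 1 scale that interval runs from 0.857 to 1.09 times the GFP level.

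Ier2, a serum-induced gene whose small nuclear product is less well understood, lies on chromosome 8, from 85387960 to 85389483. It had 32.2, 28.3 and 27.3 FPKM in the GFP-CCNB1IP1 libraries and 30.9, 31.1 and 26.9 FPKM in the GFP libraries, with overlap and a log2 difference of -0.016 (SE 0.083, interval -0.21 to 0.18; limma, adjusted p = 0.967). GFP replicate 2 exceeded GFP replicate 1 by very little here, well within their deposited intervals of 29.1 to 33.1 and 28.9 to 33.0 FPKM.

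Ier3, also called IEX-1, is induced by NF-kB, p53 and growth factors and acts on cell survival and ERK signalling. It lies on chromosome 17, from 36132576 to 36133815. It had 47.1, 45.8 and 45.8 FPKM in the GFP-CCNB1IP1 libraries and 33.4, 50.9 and 35.3 FPKM in the GFP libraries. The GFP-CCNB1IP1 values lay close together, above GFP replicates 1 and 3 and below GFP replicate 2. Ier3 had the largest log2 difference of the 9 members tested, 0.23 (SE 0.14, interval -0.092 to 0.56), and did not pass (limma, adjusted p = 0.580).

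The order of the mean levels over the 6 libraries was Jund, Egr1, Ier3, Junb, Jun, Ier2, Fosl2, Fos, Fosb and Fosl1, from 99.9 to 0.548 FPKM. The lowest Jund value, 82.6 FPKM, was above the highest of Egr1, 60.8 FPKM, and Junb, Fosl2, Fos and Fosb each stayed apart from the gene next below it. The pairs of neighbours not separated by their ranges were Egr1 and Ier3, Ier3 and Junb, and Jun and Ier2. Egr1 was nevertheless above Ier3 in each of the 6 libraries, whereas Ier3 exceeded Junb in 4 of 6 and Jun exceeded Ier2 in 4 of 6. Jund was more abundant than 95.6% of the genes tested and Egr1 than 90.6%, while Fos was above 24.6%.

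In the comparison of GFP-CCNB1IP1 with GFP by limma, 0 of the 9 members tested passed at an adjusted p under 0.05, where 1 of the 13231 genes tested did (0.00756%). At an unadjusted p under 0.05 there was 1 member, Fosl2, against a background of 11.4% of all genes, and the groups did not overlap for the same 1 member, higher in GFP-CCNB1IP1, against 8.7% of all genes in that direction and 17.6% in either. No member was lower without overlap, against 8.9% of all genes. Of the 9 members, 4 had a positive difference (Fosl2, Junb, Jund and Ier3) and 5 a negative one, where 51.4% of all genes were positive. Their median log2 difference was -0.0093, beside 0.0037 over all genes. These shares are near the background and are not a result about the members.

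**Figure D3:**
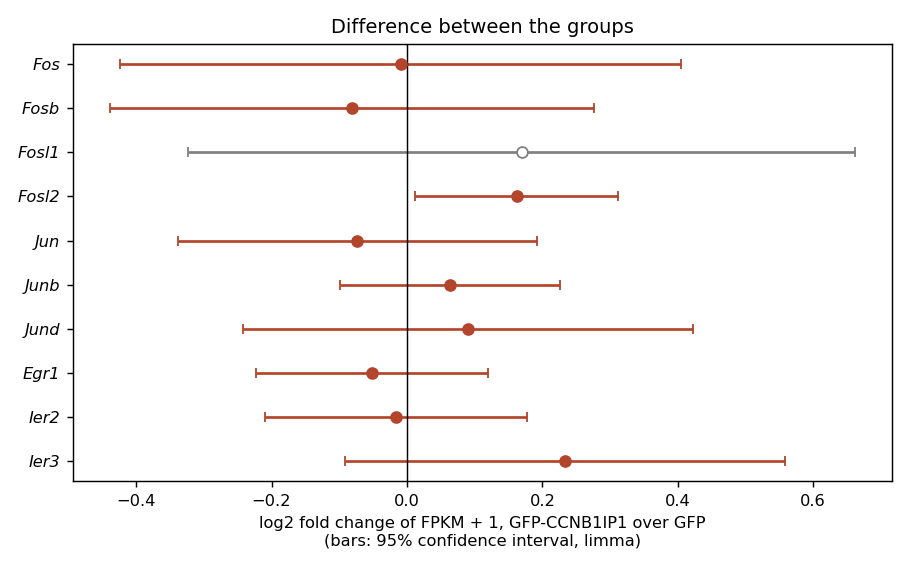
Log2 fold change of FPKM + 1, GFP-CCNB1IP1 over GFP (horizontal axis), with its 95% confidence interval from limma, for each of the 10 genes (vertical axis); the grey open circle marks Fosl1, taken from the fit with no filter. The interval of Fosl2, 0.012 to 0.31, is the only one that does not include 0, and Fosl2 did not pass after adjustment over all genes, where its adjusted p was 0.409.

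The spread within the GFP group was wide for these genes. The median SD of the log2 values of the 9 members was 0.084 in the GFP-CCNB1IP1 libraries and 0.20 in the GFP libraries, whereas over all genes tested the medians were 0.092 and 0.098. The SD was larger in GFP than in GFP-CCNB1IP1 for 8 of the 9 members, Ier2 being the exception, and for 52.3% of all genes. GFP replicate 2 exceeded the mean of the other two GFP libraries 1.68 times for Fos, 1.48 times for Ier3, 1.44 times for Fosb, 1.41 times for Jund and 1.34 times for Jun. It did so only 1.08 times for Fosl2 and for Ier2. For 6 of the 10 genes its deposited interval lay wholly above those of both other GFP libraries, as it did for 2.22% of all genes tested. Junb is among the 6, with bounds summed over its rows. Its lower bound in GFP replicate 2, 42.1 FPKM, was just above its upper bound in GFP replicate 1, 41.8 FPKM.

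GFP replicate 2 also had the greatest relative depth, 1.06, and the largest number of table rows above 0, 22508 against 21427 to 21865 in the other 5 libraries. Its median deviation from the GFP mean over all genes tested was 0.0056 on the log2 scale, against 0.21 over the 9 members, and the inducible heat shock gene Hspa1b was at its highest in the same library. The part of depth or of heat shock in the level of the members was not tested.

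Leaving out GFP replicate 2 has to raise the difference of each of the 9 members tested, since it was their highest GFP library, so what follows is a description of that dependence. All 9 then had a positive log2 difference (52.3% of all genes did), with a median of 0.12 beside 0.0084 over all genes. Without GFP replicate 3, 3 of the 9 were positive and 6 negative, with a median of -0.083, and without GFP-CCNB1IP1 replicate 1, 4 were positive and 5 negative, with a median of -0.0063. Without GFP replicate 2 the difference was 0.42 for Ier3, 0.25 for Jund, 0.20 for Fos and for Fosl2, 0.12 for Junb, 0.064 for Jun and 0.025 for Fosb, and it was 0.019 for Ier2 and 0.015 for Egr1. The smallest adjusted p among the members was that of Ier3, at 0.179, so 0 members passed there either; 3 of the 9 had an unadjusted p under 0.05, beside 12.6% of all genes. Fos, Fosb, Jun, Egr1 and Ier2 had a negative difference with all libraries and a positive one without this library. The sign of Fos also turned without GFP-CCNB1IP1 replicate 1 (0.033) or replicate 3 (0.045), and that of Ier2 without GFP-CCNB1IP1 replicate 2 (0.0053) or replicate 3 (0.031) or without GFP replicate 1 (0.015). Jund, positive with all libraries, was negative without GFP-CCNB1IP1 replicate 1 (-0.0063) or GFP replicate 3 (-0.016).

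**Figure D4:**
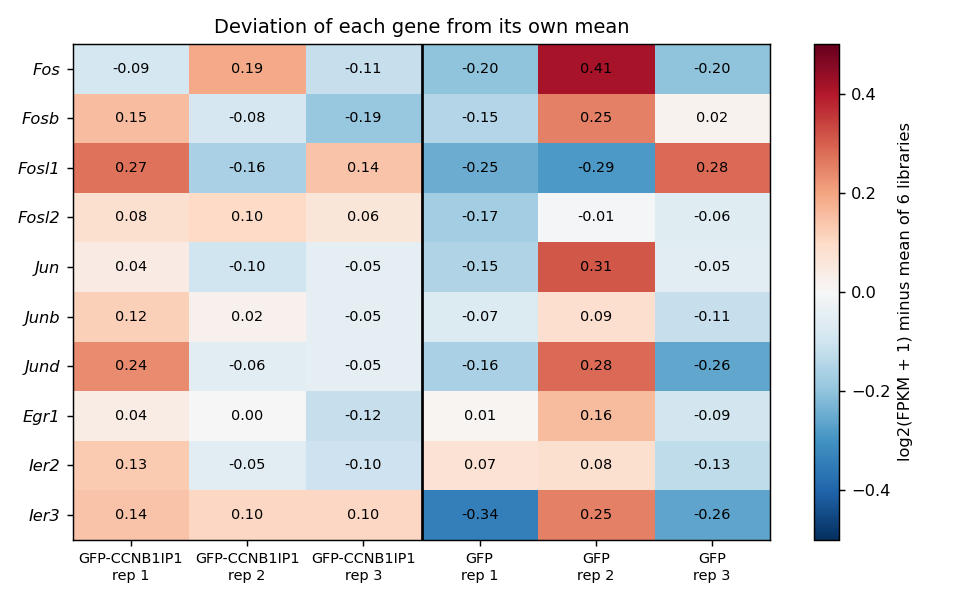
Deviation of each gene's log2(FPKM + 1) from its own mean over the 6 libraries (colour and printed value), with genes in rows and libraries in columns, GFP-CCNB1IP1 replicates 1 to 3 left of the line and GFP replicates 1 to 3 right of it. GFP-CCNB1IP1 replicate 1 is positive for 9 of the 10 genes and GFP replicate 2 for 8, reaching 0.41 for Fos in GFP replicate 2, while GFP replicates 1 and 3 are each negative for 8 of the 10, reaching -0.34 for Ier3 in GFP replicate 1.

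Genes of the pathway were also taken from lists by role, and of these 0 passed at an adjusted p under 0.05 (limma). The lists were written with earlier results of these data known, so their counts and medians are a description only. They also share genes: Zfp36, Zfp36l1 and Dusp1 stand in both the other immediate early genes and the inhibitors, and the member Fosl1 stands among the targets. The bZIP partners of AP-1, such as the ATF, BATF and MAF proteins, had 8 of 11 tested genes higher and 3 lower. Their median log2 difference was 0.079, with 0 at an unadjusted p under 0.05 (limma). Of all genes tested, 51.4% were higher and 11.4% had an unadjusted p under 0.05. Atf3, a stress-induced partner of JUN, had the smallest p of that list, with 36.3, 31.4 and 30.4 FPKM in the GFP-CCNB1IP1 libraries and 22.9, 33.3 and 23.3 FPKM in the GFP libraries. GFP replicate 2 was the highest GFP library for 8 of the 11, beside 38.1% of all genes. The groups of Atf3 overlapped through that library (log2 difference 0.31, SE 0.14; limma, adjusted p = 0.456). Batf3 (5.55, 7.88 and 6.79 FPKM in GFP-CCNB1IP1 against 4.80, 6.67 and 5.35 FPKM in GFP) and Mafa (3.83, 3.76 and 4.12 FPKM in GFP-CCNB1IP1 against 3.35, 4.05 and 2.94 FPKM in GFP) overlapped likewise.

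Of 43 other immediate early genes, 38 were tested, with 27 higher and 11 lower, where 51.4% of all genes were higher. The median log2 difference was 0.055. At an unadjusted p under 0.05 (limma) there was 1 gene, beside 11.4% of all genes. That gene was Zfp36l2, of a family whose proteins bind AU-rich elements and speed the decay of short-lived transcripts, with 69.7, 70.8 and 66.6 FPKM in the GFP-CCNB1IP1 libraries and 61.0, 66.3 and 61.3 FPKM in the GFP libraries (limma, adjusted p = 0.400). Crem, which encodes repressors and activators of cyclic AMP response, had 7.02, 5.47 and 5.62 FPKM in the GFP-CCNB1IP1 libraries and 5.28, 4.13 and 5.10 FPKM in the GFP libraries. Egr3, an EGR1 relative, had 4.67, 4.06 and 5.65 FPKM in the GFP-CCNB1IP1 libraries and 3.10, 3.74 and 4.43 FPKM in the GFP libraries. The groups of Egr3 overlapped. Of the 38, 3 were higher without overlap (Zfp36l2, Crem and Egr2), beside 8.7% of all genes, and 2 were lower without overlap (Klf10 and Per1), beside 8.9%; Egr2, Klf10 and Per1 were named after their values were seen. GFP replicate 2 was the highest GFP library for 32 of the 38, beside 38.1% of all genes, and without it the median of this list was 0.17.

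The inducers of immediate early transcription, namely SRF, its cofactors, CREB with its coactivators and the MAP kinases, had 17 of 28 genes higher. The other 11 were lower, where 51.4% of all genes were higher. The list median was 0.020, with 1 at an unadjusted p under 0.05 (limma), beside 11.4% of all genes. The CREB coactivator gene Crtc1 had 7.18, 7.62 and 7.91 FPKM in the GFP-CCNB1IP1 libraries and 9.28, 8.18 and 8.67 FPKM in the GFP libraries, lower without overlap, with a log2 difference of -0.18 (SE 0.076; limma, adjusted p = 0.431). Crtc2 had 20.7, 22.5 and 19.8 FPKM in the GFP-CCNB1IP1 libraries and 22.1, 23.9 and 23.8 FPKM in the GFP libraries. Rps6ka1, the gene of the ERK-activated kinase RSK1, had 20.4, 17.6 and 18.2 FPKM in the GFP-CCNB1IP1 libraries and 20.6, 20.8 and 20.2 FPKM in the GFP libraries. Crtc2 and Rps6ka1 overlapped between the groups. GFP replicate 2 was the highest GFP library for 14 of the 28, beside 38.1% of all genes.

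Genes that restrain AP-1 and EGR1, or turn over their transcripts and proteins, had 11 of 16 higher and 5 lower. Of all genes, 51.4% were higher. The list median was 0.042, with 1 at an unadjusted p under 0.05 (limma), beside 11.4% of all genes. GFP replicate 2 was the highest GFP library for 7 of the 16 (43.8%), near the 38.1% of all genes. Dusp4, a nuclear phosphatase of MAP kinases that ERK signalling induces, had 147.9, 149.1 and 142.6 FPKM in the GFP-CCNB1IP1 libraries and 127.9, 139.1 and 128.4 FPKM in the GFP libraries. Its groups did not overlap and its log2 difference was 0.15 (SE 0.049; limma, adjusted p = 0.323). The EGR1 corepressor gene Nab2 had 14.1, 13.8 and 13.5 FPKM in the GFP-CCNB1IP1 libraries and 13.8, 11.3 and 12.6 FPKM in the GFP libraries.

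Of 32 genes known as AP-1 or EGR1 targets in various cells, 21 were tested. Of these, 17 were higher and 4 lower, with a median of 0.13, where 51.4% of all genes were higher. Targets with an unadjusted p under 0.05 (limma) numbered 7 higher and 0 lower, beside 5.59% of all genes higher. After adjustment over all genes 0 of the 21 passed. Since this list was written with earlier results of these data known, the share beside the background is a description and not a test. Timp1, an inhibitor of matrix metalloproteinases and a textbook AP-1 target, had 28.1, 21.5 and 23.3 FPKM in the GFP-CCNB1IP1 libraries and 17.6, 14.7 and 17.9 FPKM in the GFP libraries. Every GFP-CCNB1IP1 value was above every GFP value, and the log2 difference was 0.51 (SE 0.11, interval 0.25 to 0.77; limma, adjusted p = 0.224). For Timp1 GFP replicate 2 was the lowest library, whereas it was the highest GFP library for 16 of the 21 targets, beside 38.1% of all genes. Mt1, a metal-binding metallothionein gene, had 2.98, 3.47 and 3.16 FPKM in the GFP-CCNB1IP1 libraries and 1.36, 2.49 and 2.26 FPKM in the GFP libraries (log2 difference 0.49, SE 0.16; limma, adjusted p = 0.323). The cytokine gene Il6 had 26.8, 28.3 and 27.2 FPKM in the GFP-CCNB1IP1 libraries and 25.0, 20.6 and 22.3 FPKM in the GFP libraries, also without overlap. The other 4 were Mmp9, Plaur, Ccnd1 and Vgf, named after their values were seen. The 11 targets not tested were below the filter.

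Heat shock genes were listed because cell stress, which induces several of them, is also known to induce Fos, Jun and Atf3. The list is not of inducible genes alone. It holds genes abundant in all 6 libraries, such as Hspa8 at 1034 to 1242 FPKM, named after its values were seen. All 9 tested genes of the list were lower in GFP-CCNB1IP1, with a median log2 difference of -0.15, where 51.4% of all genes were higher. Of the 9, 6 had an unadjusted p under 0.05 (limma), beside 5.77% of all genes lower. The list was written with earlier results of these data known, so these counts are a description and not a test. Hspa1b had 2.10, 1.79 and 1.84 FPKM in the GFP-CCNB1IP1 libraries and 5.58, 9.17 and 6.90 FPKM in the GFP libraries (limma, adjusted p = 0.0987). Hspa1a, an almost identical copy beside it, had 0.559, 0.687 and 0.414 FPKM in the GFP-CCNB1IP1 libraries and 1.92, 2.90 and 2.61 FPKM in the GFP libraries, and the split of fragments between this pair is uncertain. The small heat shock gene Cryab had 33.6, 33.4 and 37.1 FPKM in the GFP-CCNB1IP1 libraries and 41.2, 48.3 and 40.9 FPKM in the GFP libraries. Groups of these 3 genes, named for the smallest p of the list, did not overlap. Of the 9 genes tested, 8 were lower without overlap, beside 8.9% of all genes. GFP replicate 2 was the highest GFP library for 8 of the 9, beside 38.1% of all genes.

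**Figure D5:**
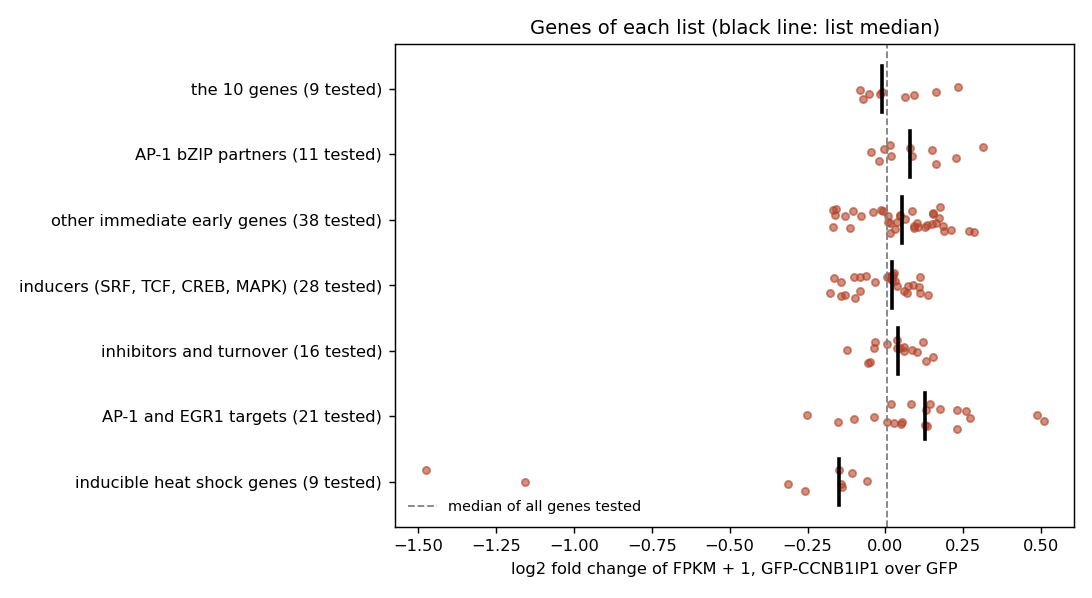
Log2 fold change of FPKM + 1, GFP-CCNB1IP1 over GFP (horizontal axis), of each tested gene (points, spread vertically for legibility) in the 10 genes described and the 6 other lists (rows), with the list median as a black line and the median of all genes tested, 0.0037, as a dashed line. The medians run from -0.15 for the heat shock genes to 0.13 for the AP-1 and EGR1 targets, and that of the 10 genes, of which 9 were tested, is -0.0093.

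Fos and Ier3 had the largest SD over the 6 libraries among the members tested, 0.25 and 0.24 on the log2 scale, and the genes most like each were sought by the root mean square difference of log2 values over the 6 libraries, each gene centred on its mean. The 4 nearest to Fos were Lmo2, Wnk4, Tmem86b and Slc25a35, at 0.060 to 0.071, where the own deviation of Fos was 0.23. Lmo2, a LIM-domain cofactor, had 1.60, 1.87 and 1.60 FPKM in the GFP-CCNB1IP1 libraries and 1.48, 2.56 and 1.42 FPKM in the GFP libraries, high in GFP replicate 2 as Fos was. The member nearest to Fos was Jun, at 0.15, behind 300 other genes. The 4 nearest to Ier3 were Dync2li1, Rhov, Gm29543 and Aldoc, at 0.052 to 0.060. Aldoc, a glycolytic aldolase gene, had 11.3, 11.1 and 9.82 FPKM in the GFP-CCNB1IP1 libraries and 8.07, 12.1 and 8.10 FPKM in the GFP libraries. The member nearest to Ier3 was Jund, at 0.12. The nearest genes were picked for their likeness over 6 values among all genes tested, so that likeness, also in GFP replicate 2, is no result about them. Slc25a35 was near the filter, with means of 1.07 FPKM in GFP-CCNB1IP1 and 1.08 FPKM in GFP. All these genes share the 6 libraries and their depth.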

How the data were processed

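The authors deposited 1 table per library with FPKM per gene and the bounds of a confidence interval of unstated level, per the file headers. The submitters' processing notes name HISAT2 and Cufflinks, with no version. Genome build, annotation release and strand: not given in the sources used here. Rows of the same identifier (38 identifiers, Junb among them) were summed, both FPKM and interval bounds. The starts of loci, taken as 0-based, were raised by 1.

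Genes with a mean of at least 1 FPKM over the 6 libraries (13231) were tested on log2(FPKM + 1), which understates the change of low genes, with limma 3.58.1 in R 4.3.3 (mean-variance trend, group as the only term, two-sided). Calls were made at an adjusted p under 0.05 by the Benjamini-Hochberg method over all genes tested. An exact permutation test was not used, since 3 against 3 libraries allow no p below 0.1. Implied fragments are (FPKM / standard error) squared, with the upper bound taken as 2 standard errors above the FPKM; relative depth is the median over genes with 5 to 50 implied fragments. Read totals are not given, and the intervals cover counting and assignment error only.

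On simulated data (13231 genes, 5 draws) limma found 71.3% of the genes given a log2 change of 0.5 and 95.5% of those given a change of 1. It found 239 of 335 and 320 of 335 such genes, and false calls came to 36 over the draws. Only genes of higher level were given a change, so levels like those of Fos and Fosb were left out. Many genes changed at once, which eases the adjusted p, and the noise was independent between genes. The shares are therefore not the power for the members in these data.

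The members and lists were chosen with earlier results of these data known. Named genes are the 10 members, the 3 smallest p-values of each list and the 4 genes nearest to the 2 most variable members. A gene that this rule takes is not reported here. Alternatives covered the pseudocount, the filter, scaling, TPM, a replicate block, the trend and each library left out.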

Additional observations from a re-analysis of the deposited data

How the results depend on the processing

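No member passed under any of the 15 alternatives run. The number of all genes called, 1 with the main settings, was 0 without a filter, with pseudocount 5, under the replicate block and without limma's trend; it was 2 with TPM and 0 to 4 with 1 library left out. The log2 differences of Fosl2, Junb and Ier3 stayed positive under every alternative, and those of Fosl2 ran from 0.12 to 0.20 (adjusted p from 0.324 to 0.625; the unadjusted p was under 0.05 in 8 of the 15 and missed it with TPM, the replicate block and 5 of the 6 fits without a library). With 1 library left out the log2 difference ran from -0.11 to 0.20 for Fos, -0.18 to 0.025 for Fosb, -0.17 to 0.064 for Jun, -0.016 to 0.25 for Jund, -0.11 to 0.015 for Egr1 and -0.085 to 0.031 for Ier2, so these 6 changed sign. Fos also changed sign with quantile normalization, at 0.0039. The cause was not tested. The median of the inducers turned to -0.015 without GFP-CCNB1IP1 replicate 1 and to -0.0042 without GFP replicate 1, that of the inhibitors to -0.013 without GFP replicate 3, and that of the other immediate early genes was 0.0029 without GFP replicate 3; the other list medians kept their sign with each library left out, except that of the members. The replicate block left 0 members called, as without it; same-numbered libraries did not deviate together (correlations across genes of 0.023, -0.0093 and -0.011 for numbers 1 to 3), and 1 of the 3 GFP-CCNB1IP1 libraries correlated best with its own number. For Fosl1 few fragments limit what can be seen.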
